A study of Mus musculus with 6 samples.

Results

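The liver secretes most of the complement and coagulation proteins of blood plasma, and the 40 genes described here encode such proteins. Members were taken by exact gene name from a list of secreted complement components, clotting factors, their inhibitors and the proteins of clot breakdown. All 40 are among the 25904 genes of the count table, and all 40 passed the filter on low counts that left 14606 genes for testing. They comprise 18 complement members and 22 members of coagulation, fibrinolysis and their inhibitors. Polyadenylated RNA was sequenced from livers of C57BL/6J mice, with 3 libraries from wild-type mice (Ptprd+/+, WT) and 3 from heterozygous mice (Ptprd+/-, Het). Ptprd encodes a receptor-type protein tyrosine phosphatase, and the series title concerns its impairment in metabolic disease of the liver. The kind of Ptprd allele and the sex, age, diet and time of sampling of the mice were not given in the sources used here. No treatment is named for either genotype. If any libraries of a genotype came from the same mouse, the p-values measure only technical spread.

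Complement is a cascade of plasma proteases that is started by antibodies, by mannose-binding lectins or by the spontaneous alternative route, converges on C3, and ends in a pore built from the terminal components. Coagulation is a second protease cascade, in which vitamin K-dependent factors and the contact system lead to thrombin, thrombin turns fibrinogen into fibrin, and plasmin later dissolves the clot. Hepatocytes make nearly all of these proteins, pass them through the endoplasmic reticulum, and raise the fibrinogen chains and several complement genes in the acute-phase response to inflammation. Het was compared with WT here for each member, and the members' share of all counts was used to measure how much of the liver's RNA they took up.

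Ptprd itself was measured first. Its normalized read count (CPM, scaled to the effective library size) was 128, 127 and 132 in WT 1, 2 and 3, against 54.1, 78.1 and 63.5 in Het 1, 2 and 3. The genotypes did not overlap, and Ptprd was 1.98-fold lower in Het. An exact permutation test gave a two-sided p of 0.1, the smallest that 3 against 3 libraries allow. Total counts ranged from 37924266 to 72954187 per library. Hepatocyte markers summed to between 136900 and 162300 CPM in WT and between 162300 and 193000 in Het. Albumin (Alb) made up most of each sum, so the sums describe that gene above all. Alb was between 100000 and 117400 CPM in WT and between 118400 and 144200 in Het. Kupffer cell markers, of which 12 of 12 were tested, summed to between 633 and 971 CPM in WT and between 467 and 853 in Het, and leukocyte markers to between 25.1 and 32.1 in WT and between 14.4 and 21.7 in Het. The part of these cells in any member's value was not tested. In bulk tissue, fewer cells of a type and less RNA per cell cannot be told apart.

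Differences in RNA level between the genotypes were small for most members. By edgeR's quasi-likelihood test with p-values adjusted over every tested gene by the Benjamini-Hochberg method, 0 members passed an adjusted p of 0.05, as did 0.0% of all genes. At an unadjusted p under 0.05 there were 3 members, or 7.5%, against 7.15% of all tested genes. These were Cfb and F11, both higher in Het (3.39% of all genes were), and F9, lower in Het (3.77% of all genes). DESeq2 called 1 member, Cfb, against 0.511% of all genes, and limma-voom called 0. Unadjusted p-values under 0.05 were found for 3 members by DESeq2, against 6.79% of all genes, and for 3 by limma-voom, against 7.33%.

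By CPM, the 6 libraries did not overlap between genotypes for 5 members (12.5%). Cfb, F11 and Klkb1 were higher in every Het library, and F9 and Pros1 were lower. By share of all counts Klkb1 overlapped. Among all genes, 13.9% did not overlap. The member shares at both criteria were close to these backgrounds. The median log2 fold change, Het over WT, was 0.03 for members and 0.00 for all genes (-0.004), with members from -0.23 to 0.70. For 32 of the 40 members the 95% interval of the fold change lay within 1.5-fold in either direction, against 53.5% of all genes, and for 38 it lay within 2-fold, against 80.2%. The exceptions to the 2-fold bound were Cfb and C8a. All genes were not matched to the members for RNA level in these comparisons.

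**Figure D1:**
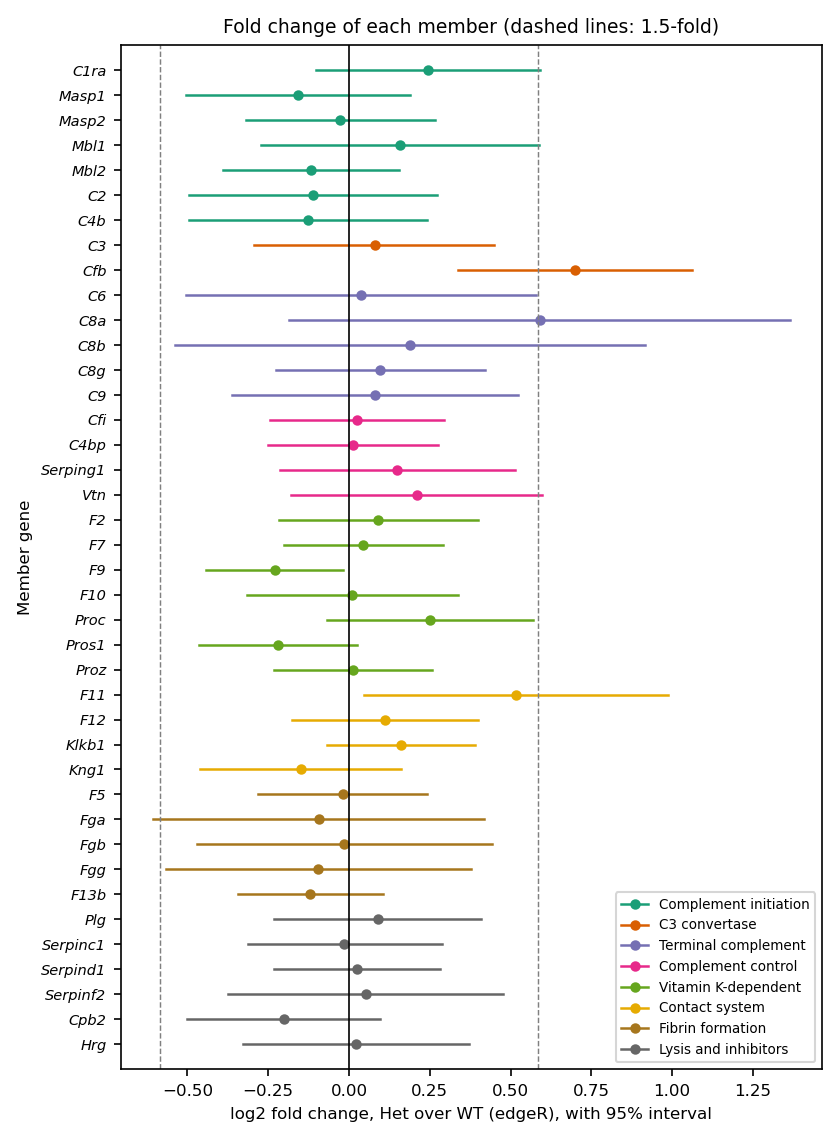
Log2 fold change of each of the 40 members, Het over WT, from the edgeR fit, with members grouped by role. Points are estimates, bars are 95% intervals and dashed lines mark 1.5-fold. The intervals of Cfb and F11 lie above 0, that of F9 lies below 0, and the rest cross 0.

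Among the single libraries, Het 1 was the highest of the 6 libraries in CPM for 28 members (70%), against 22.8% of all genes. CPM depends on each library's scaling factor, which was lowest in Het 1, at 0.9371. The order of Het 1 and the libraries nearest it can differ by share of all counts. WT 1 was the lowest for 15 members (37.5%, against 16.6%) and Het 3 for 12 (30.0%, against 15.9%). The median over members of log2 CPM, centred for each gene on its mean over the 6 libraries, was -0.10, -0.01 and 0.10 in WT 1, 2 and 3, and 0.24, -0.03 and -0.09 in Het 1, 2 and 3. Het 1 stood above every WT library by this measure, and Het 2 and Het 3 lay within the WT range.

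Members with a log2 fold change above 0 numbered 25 of 40 (62.5%, against 49.2% of all genes), but 10 without Het 1, 31 without WT 3 and 33 without Het 2 and Het 3. A list of 19 acute-phase genes, none of them a member, had medians of -0.07, 0.01 and 0.08 in WT and 0.38, -0.13 and -0.20 in Het on the same centred scale, the same order of Het libraries as the members. Het 2 and Het 3 also stood apart in clock genes. Dbp, a clock output gene, was between 13.5 and 29.6 CPM in the 3 WT libraries and Het 1, and 129 and 122 CPM in the other 2 Het libraries. Arntl, a core clock activator, was between 11.8 and 21.4 CPM in the first 4 of these libraries, against 2.41 and 1.92 CPM in the others. The part of either pattern in the members' values was not tested.

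**Figure D2:**
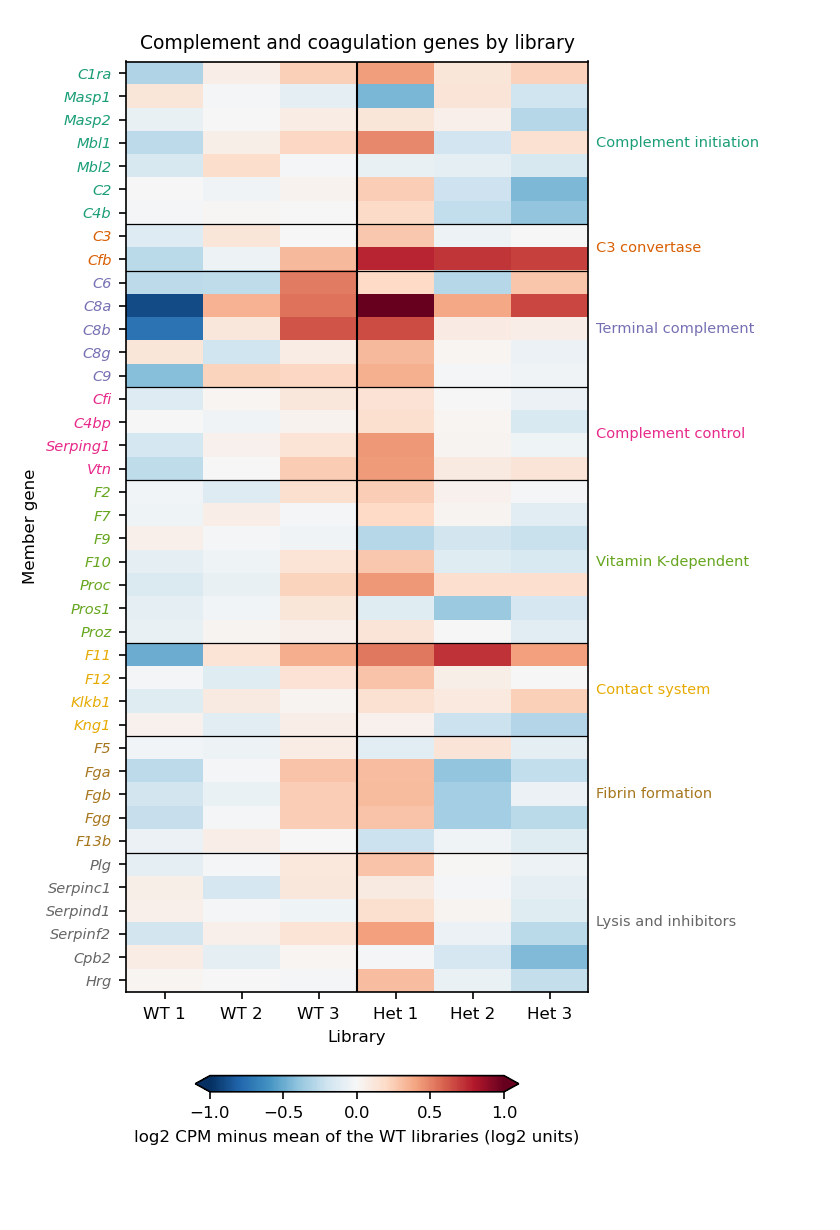
Log2 CPM of each member (rows, grouped by role) in each library (columns), centred on that gene's mean over the 3 WT libraries. Het 1 is the highest library for 28 of 40 members, and C8a, C8b, F11 and Cfb show the widest range, with WT 1 lowest in all 4.

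The promoters of the 3 fibrinogen genes are given here because the genes lie side by side on chromosome 3. By CPM they also shared their highest library, Het 1, and their lowest, Het 2. Each window runs from 250 bases before to 50 bases after the RefSeq start in GRCm38.p6 (mm10), 5′ to 3′ on the gene's own strand. Capitals mark matches, on either strand, to TTGCNNAA (a C/EBP core), TTCNNNGAA (a STAT core) or CTGGGAA (an interleukin-6-type element of liver genes). CTGGGAA can overlap the STAT core. The Fga window is chr3:83025903-83026202 on the plus strand, the Fgb window chr3:83049814-83050113 on the minus strand and the Fgg window chr3:83007474-83007773 on the plus strand.
Fga: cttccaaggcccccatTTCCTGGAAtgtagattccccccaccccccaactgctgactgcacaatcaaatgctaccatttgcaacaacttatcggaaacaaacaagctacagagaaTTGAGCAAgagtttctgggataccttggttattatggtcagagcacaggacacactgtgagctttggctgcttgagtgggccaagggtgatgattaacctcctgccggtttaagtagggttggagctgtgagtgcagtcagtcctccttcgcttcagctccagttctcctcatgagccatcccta
Fgb: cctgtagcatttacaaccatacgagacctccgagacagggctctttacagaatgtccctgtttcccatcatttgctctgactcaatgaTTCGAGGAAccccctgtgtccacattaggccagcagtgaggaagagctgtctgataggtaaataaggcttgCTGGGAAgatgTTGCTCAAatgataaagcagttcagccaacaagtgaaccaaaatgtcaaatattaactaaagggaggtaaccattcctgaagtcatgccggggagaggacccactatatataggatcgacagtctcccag
Fgg: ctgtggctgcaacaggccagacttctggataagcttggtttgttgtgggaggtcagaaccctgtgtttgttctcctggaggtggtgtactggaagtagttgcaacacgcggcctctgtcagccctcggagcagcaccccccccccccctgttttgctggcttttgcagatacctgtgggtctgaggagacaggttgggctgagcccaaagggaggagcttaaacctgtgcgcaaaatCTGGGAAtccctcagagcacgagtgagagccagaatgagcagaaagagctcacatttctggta
The Fga window held TTGAGCAA starting 135 bases before the start and TTCCTGGAA 234 bases before it. The Fgb window held TTGCTCAA at 80, CTGGGAA at 91 and TTCGAGGAA at 162 bases before the start. The Fgg window held CTGGGAA at 13 bases before the start and no match to the other motifs.

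RefSeq promoter windows were matched for 31 of the 40 members. TTGCNNAA was found in windows of 11 of these 31 genes (35.5%), against 10.8% of the 32851 windows of all genes. TTCNNNGAA was found in 8 (25.8%, against 8.3%) and CTGGGAA in 7 (22.6%, against 11.1%). No member window held the full HNF1 palindrome, TTATGTAA (a D-box), CACGTG (an E-box) or the endoplasmic reticulum stress element. Those motifs were in 0.00913%, 0.938%, 7.15% and 0.119% of all windows. A match is a description of the letters, and an absent match says only that these letters are not in the window.

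Fibrin formation and its cofactors comprised 5 members, all with a log2 fold change below 0 and none with an unadjusted p under 0.05. Without WT 3, Fga (0.06), Fgb (0.12), Fgg (0.04) and F5 (0.02) were above 0. Fga, the fibrinogen alpha chain, was at 4497, 5327 and 6574 CPM in WT against 6696, 4113 and 4556 CPM in Het. Fgb, the beta chain, was at 4062, 4408 and 5467 CPM in WT against 5740, 3648 and 4416 CPM in Het. Fgg, the gamma chain, was at 2956, 3439 and 4119 CPM in WT against 4223, 2737 and 2886 CPM in Het. By CPM, Het 1 was highest in all 3 genes, WT 3 came next and Het 2 was lowest. On that scale the Het libraries enclosed the WT libraries. As a share of all counts, the 3 chains together were highest in WT 3 (1.592%), then in Het 1 (1.560%). The log2 fold changes were -0.09 (SE 0.22) for Fga, -0.01 (SE 0.20) for Fgb and -0.10 (SE 0.21) for Fgg. That of Fga was 0.30 without Het 2 and Het 3 and -0.34 without Het 1. F5, the cofactor that speeds thrombin formation, was at 733, 720 and 784 CPM in WT against 690, 817 and 700 CPM in Het, with overlapping genotypes. F13b, the carrier subunit of the fibrin-crosslinking factor XIII, was at 239, 260 and 248 CPM in WT against 215, 243 and 229 CPM in Het, a log2 fold change of -0.12 (SE 0.10).

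The alternative route of complement gave the largest difference among the members. Cfb encodes factor B, the protease subunit of the alternative-route C3 convertase. It was at 7.858, 9.124 and 11.86 CPM in WT 1, 2 and 3, against 16.02, 15.56 and 15.19 CPM in Het 1, 2 and 3. Every Het library lay above every WT library, and the Het libraries lay closer together, with means of 15.6 ± 0.415 (SD, n = 3) against 9.61 ± 2.05 (SD, n = 3). The log2 fold change was 0.70 (SE 0.16), or 1.62-fold higher in Het. The edgeR quasi-likelihood adjusted p was 0.577, and DESeq2 gave an adjusted p of 0.0319. Leaving out single libraries moved the log2 fold change between 0.57 and 0.88, and without Het 2 and Het 3 it was 0.74. Cfb had an unadjusted p under 0.05 in every alternative run. It was also the member with the lowest RNA level per transcript length in WT, at 3.51 ± 0.747 CPM per kb (SD, n = 3).

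Cfb lies at chr17:34856374-34862518 (mm10), 85 bases from C2 on the same strand. C2, the corresponding protease of the classical and lectin routes, was at 33.2, 32.3 and 33.9 CPM in WT against 39.2, 28.7 and 24.2 CPM in Het. Its genotypes overlapped, with a log2 fold change of -0.11 (SE 0.17). C4b lies 112 kb from Cfb, and its product is cleaved to form part of the classical C3 convertase. It was at 1391, 1420 and 1410 CPM in WT against 1607, 1186 and 1072 CPM in Het. The WT libraries of C4b nearly coincided, while Het 1 lay above and Het 2 and Het 3 below all of them. Its log2 fold change was -0.13 (SE 0.16), and 0.20 without Het 2 and Het 3. C4b, C1ra and Kng1 have near-identical copies in the mouse genome, so their counts depend on how shared reads were treated and are uncertain.

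C3, the protein on which all routes converge, held 27.3% of all member counts. It was at 13190, 15730 and 14470 CPM in WT against 17380, 13960 and 14480 CPM in Het. The genotypes overlapped, with Het 1 highest and WT 1 lowest in CPM, and the log2 fold change was 0.08 (SE 0.16). As a share of all counts C3 was highest in WT 2 (1.659%), then in Het 1 (1.628%). Of the 7 initiation members 2 had a log2 fold change above 0, and their median was -0.11. C1ra, a protease of the classical C1 complex, was highest among them in fold change at 0.24 (SE 0.15), with 113, 145 and 163 CPM in WT against 185, 151 and 162 CPM in Het. Only WT 1 lay clearly below the other libraries. Mbl1 and Mbl2, the mannose-binding lectins, had log2 fold changes of 0.16 (SE 0.19) and -0.12 (SE 0.12), and the lectin-associated proteases Masp1 and Masp2 had -0.16 (SE 0.15) and -0.03 (SE 0.13).

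Among the 5 terminal components, all with a log2 fold change above 0, C8a and C8b varied most between libraries. C8a, the alpha chain of C8, was at 171, 406 and 465 CPM in WT against 645, 416 and 507 CPM in Het, so that its highest library was 3.76 times its lowest. C8b, the beta chain, was at 148, 266 and 380 CPM in WT against 387, 260 and 258 CPM in Het, a ratio of 2.62. WT 1 was lowest and Het 1 highest in both genes, which lie 11.1 kb apart on chromosome 4 on opposite strands. The genotypes overlapped in both. The log2 fold change was 0.59 (SE 0.34) for C8a and 0.19 (SE 0.32) for C8b. Without WT 1 it was 0.26 for C8a and -0.10 for C8b. The median of centred log2 CPM over a list of male-biased liver genes was -1.01, -0.09 and 0.43 in WT and 0.54, -0.13 and 0.55 in Het, with WT 1 lowest there too (C6 belongs to both that list and the members). These medians overlapped between genotypes. Of the 14 male-biased genes tested, 12 had a log2 fold change above 0 (median 0.64). Of 18 female-biased liver genes, 15 were below 0 (median -0.59), while 49.2% of all genes were above 0. By edgeR 0 genes of either list passed the adjusted threshold. DESeq2 called 1 male-biased and 4 female-biased genes, against 0.511% of all genes. Genotypes did not overlap for 14.3% of the male-biased and 38.9% of the female-biased genes, against 13.9% of all genes. The part of these patterns in the values of C8a and C8b was not tested.

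The other terminal members differed less. C8g, the gamma chain of C8, had a log2 fold change of 0.10 (SE 0.14), C9, the pore-forming component, 0.08 (SE 0.19), and C6 0.04 (SE 0.24). Without WT 1 C6 was at -0.09 and C9 at -0.10, and without Het 1 C8g was at -0.03, so of the terminal members C8a alone stayed above 0 in every run that left out a library. C9 was at 176 CPM in WT 1 and between 231 and 303 CPM in the other 5 libraries. Control proteins of complement numbered 4, all with a log2 fold change above 0 and all overlapping between genotypes. Without Het 1, Cfi (-0.04), C4bp (-0.07) and Serping1 (-0.02) were below 0. Vtn, encoding vitronectin, which blocks the terminal pore, was at 2354, 2811 and 3342 CPM in WT against 3776, 2995 and 3064 CPM in Het, a log2 fold change of 0.21 (SE 0.17). Serping1, the C1 inhibitor, had 0.15 (SE 0.16), Cfi, the protease that inactivates C3b and C4b, 0.03 (SE 0.12), and C4bp, its cofactor, 0.01 (SE 0.11).

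**Figure D3:**
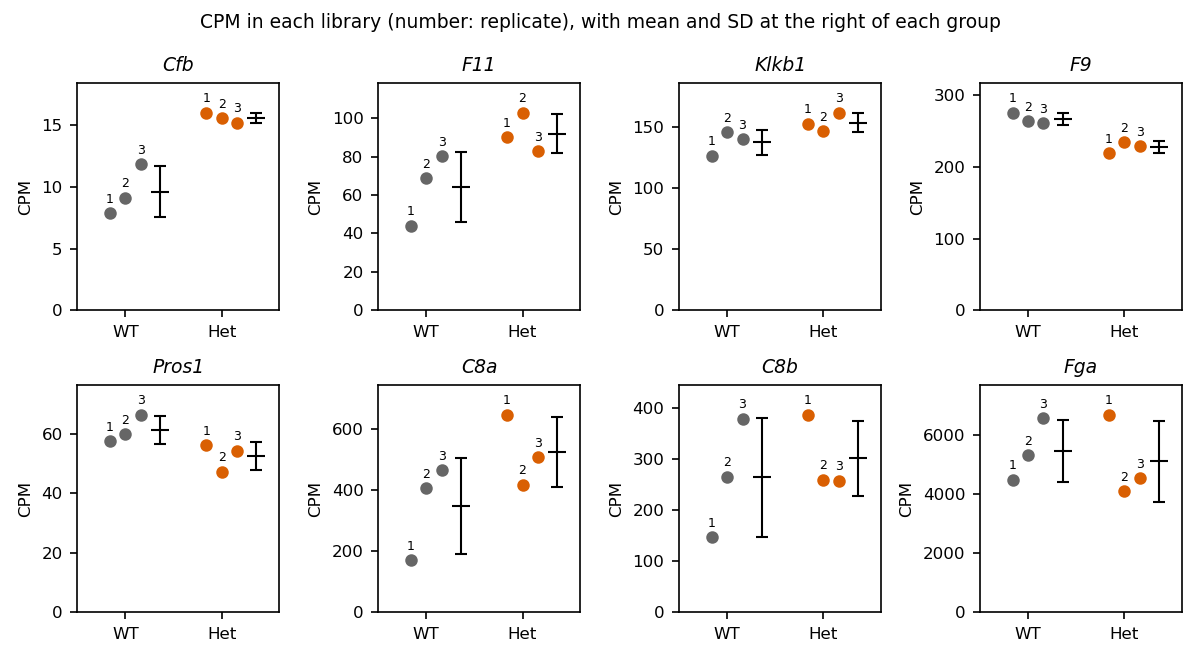
CPM of 8 members in each library, with a numbered point per library and the mean and SD at the right of each genotype (n = 3 each). Cfb, F11 and Klkb1 do not overlap and are higher in Het, F9 and Pros1 do not overlap and are lower, and C8a, C8b and Fga overlap.

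Of the 7 vitamin K-dependent proteins, F9 and Pros1 were lower in every Het library, as were 6.72% of all genes. F9 encodes factor IX, which activates factor X on the platelet surface. It was at 276, 264 and 261 CPM in WT against 219, 235 and 229 CPM in Het. The lowest WT library was 261 CPM and the highest Het library 235 CPM. The log2 fold change was -0.23 (SE 0.09), 1.17-fold lower in Het, with an unadjusted p of 0.0363 and an edgeR adjusted p of 0.694. Leaving out single libraries moved it between -0.25 and -0.21, with unadjusted p-values between 0.0597 and 0.0982, so that F9 missed 0.05 in all 6 such runs. Pros1, encoding protein S, the cofactor of activated protein C, was at 57.5, 60.0 and 66.4 CPM in WT against 56.2, 47.3 and 54.4 CPM in Het. The gap between WT 1 and Het 1 was small, the log2 fold change was -0.22 (SE 0.11) and the edgeR adjusted p was 0.705.

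Proc encodes protein C, which shuts down clotting by cleaving activated factors V and VIII. Its estimate lay in the other direction, but the 95% interval, from -0.07 to 0.57 on the log2 scale, included 0. Proc was at 471, 494 and 609 CPM in WT against 703, 584 and 586 CPM in Het, with overlapping genotypes and a log2 fold change of 0.25 (SE 0.14). F2, encoding prothrombin, was at 2061, 1924 and 2348 CPM in WT against 2494, 2171 and 2080 CPM in Het, a log2 fold change of 0.09 (SE 0.13). F7, F10 and Proz, which lie within a few kb of each other on chromosome 8, had log2 fold changes of 0.04 (SE 0.11), 0.01 (SE 0.14) and 0.01 (SE 0.11). Their 95% intervals all lay within 1.5-fold in either direction.

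The contact system starts clotting on surfaces and releases bradykinin. By CPM, 2 of its 4 members, F11 and Klkb1, were higher in every Het library, as were 7.15% of all genes. F11, encoding factor XI, which activates factor IX, was at 44.1, 68.7 and 80.2 CPM in WT against 90.2, 103 and 82.8 CPM in Het. The highest WT library, WT 3, and the lowest Het library, Het 3, were close. The log2 fold change was 0.52 (SE 0.21), 1.43-fold higher in Het, with an unadjusted p of 0.0352 and an edgeR adjusted p of 0.694. Its size rested in part on WT 1, without which the log2 fold change was 0.31, and it was 0.71 without WT 3. Its unadjusted p was under 0.05 in 2 of the 6 runs that left out a single library. Klkb1, encoding plasma prekallikrein, lies 4.66 kb from F11 on the same strand. It was at 126, 146 and 140 CPM in WT against 153, 146 and 162 CPM in Het. WT 2 at 145.9 CPM and Het 2 at 146.4 CPM nearly coincided, and the log2 fold change was 0.16 (SE 0.10). Klkb1 held 7469 of 48526395 counts in WT 2, 5566 of 38918379 in Het 1 and 6876 of 47054020 in Het 2. By share of all counts WT 2 thus lay above Het 1 and Het 2, and the genotypes overlapped. F12, encoding factor XII, had a log2 fold change of 0.11 (SE 0.13). Kng1, the kininogen from which bradykinin is released, was at 2518, 2265 and 2557 CPM in WT against 2522, 2103 and 1992 CPM in Het, a log2 fold change of -0.15 (SE 0.14).

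The promoters of F9, F11 and C8a are shown because the first 2 did not overlap between genotypes in opposite directions and the third varied most between libraries. Capitals have the same meaning as in the fibrinogen windows. The F9 window is chrX:59999214-59999513 on the plus strand, the F11 window chr8:45261982-45262281 on the minus strand and the C8a window chr4:104876349-104876648 on the minus strand.
F9: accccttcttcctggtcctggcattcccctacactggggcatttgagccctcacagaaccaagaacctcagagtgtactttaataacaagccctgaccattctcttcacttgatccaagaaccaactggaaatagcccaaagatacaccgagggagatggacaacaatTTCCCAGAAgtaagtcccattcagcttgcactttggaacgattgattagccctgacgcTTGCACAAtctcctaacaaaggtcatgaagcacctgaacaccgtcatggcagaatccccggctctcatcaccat
F11: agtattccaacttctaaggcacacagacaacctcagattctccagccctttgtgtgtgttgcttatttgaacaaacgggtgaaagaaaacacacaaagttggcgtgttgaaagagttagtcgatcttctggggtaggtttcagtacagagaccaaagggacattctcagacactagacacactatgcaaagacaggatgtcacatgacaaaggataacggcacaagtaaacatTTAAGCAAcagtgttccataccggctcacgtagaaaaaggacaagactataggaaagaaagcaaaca
C8a: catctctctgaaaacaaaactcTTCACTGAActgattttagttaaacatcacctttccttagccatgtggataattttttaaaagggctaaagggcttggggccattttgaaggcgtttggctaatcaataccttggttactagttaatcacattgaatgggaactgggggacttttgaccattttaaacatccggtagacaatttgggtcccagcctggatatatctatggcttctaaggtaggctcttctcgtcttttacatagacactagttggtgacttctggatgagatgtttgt
The F9 window held TTGCACAA 24 bases and TTCCCAGAA 82 bases before the start, the latter overlapping CTGGGAA on the opposite strand. The F11 window held TTAAGCAA 17 bases before the start. The C8a window held TTCACTGAA 228 bases before the start, and the C8b window held no match to any of the 7 motifs searched.

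Inhibitors of clotting and the proteins of clot breakdown numbered 6, and none had genotypes that did not overlap. Plg, encoding plasminogen, the precursor of plasmin, was at 2758, 2910 and 3161 CPM in WT against 3588, 2963 and 2839 CPM in Het, a log2 fold change of 0.09 (SE 0.14). Cpb2, encoding the carboxypeptidase that slows clot breakdown, was at 466, 413 and 449 CPM in WT against 435, 394 and 325 CPM in Het. Its log2 fold change was -0.20 (SE 0.13), and Het 3 was its lowest library. Serpinc1 (antithrombin), Serpind1 (heparin cofactor II), Serpinf2 (the plasmin inhibitor) and Hrg (histidine-rich glycoprotein) had log2 fold changes from -0.01 to 0.05.

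Levels of different members were compared per kb of transcript. In WT, C3 was highest at 2816 ± 247 CPM per kb (SD, n = 3). Fga followed at 2113 ± 404, Fgg at 2068 ± 345 and Vtn at 1626 ± 284 CPM per kb. Fga and Fgg differed by less than their spread, while Vtn lay below Fgg by more than either SD. Kng1 was at 1339 ± 86.8, Fgb at 1219 ± 192, Plg at 1067 ± 73.8 and F2 at 1062 ± 109 CPM per kb. Fgb, which pairs with Fga and Fgg in the same hexamer, thus had a lower level per kb than either. Its place below Fgg rests on the annotated transcript lengths used, 3810 bases for Fgb and 1695 for Fgg. By CPM alone Fgb lay above Fgg, with WT means of 4646 and 3505 CPM. At the low end stood Cfb, then C6 at 11.2 ± 3.71 and C2 at 12.5 ± 0.312 CPM per kb.

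Spread between libraries was close to that of all tested genes, which were not matched to the members for RNA level. Genes with far lower counts are among them, and counting error adds to their spread. The median over members of the ratio of the highest to the lowest library was 1.44, against 1.5 for all tested genes. The ratio was under 1.5 for 23 members and at least 2 for 4, which were C8a, C8b, F11 and Cfb.

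As a share of all counts the members held 4.98%, 5.75% and 5.82% in WT 1, 2 and 3 and 6.08%, 5.03% and 5.22% in Het 1, 2 and 3. The means were 5.52% ± 0.467 and 5.44% ± 0.560 (SD, n = 3 each), a difference, Het minus WT, of -0.07 percentage points (SE 0.42). That difference was smaller than the spread within either genotype. It was 0.56 percentage points without Het 2 and Het 3. Complement members took 2.41% ± 0.258 in WT and 2.48% ± 0.208 in Het, and the others 3.11% ± 0.269 and 2.96% ± 0.352. The 3 fibrinogen chains alone took 1.157%, 1.390% and 1.592% in WT, against 1.560%, 1.048% and 1.211% in Het. Without them the remaining 37 members took 4.14% ± 0.282 in WT and 4.17% ± 0.303 in Het.

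Shares of other secretory genes were set beside those of the members. A list of 67 other plasma proteins, albumin included, made up 24.1%, 25.4% and 27.9% of counts in WT, against 31.3%, 27.7% and 27.8% in Het, and was 1.12 times higher in Het by its mean. WT 3 lay above both Het 2 and Het 3. Genes for 15 chaperones and folding enzymes of the endoplasmic reticulum took 0.407%, 0.429% and 0.393% in WT and 0.515%, 0.533% and 0.630% in Het, 1.37 times higher by the mean, with no overlap. For every 100 member counts there were 8.17, 7.45 and 6.75 counts of these chaperone genes in WT and 8.47, 10.6 and 12.1 in Het. The lowest Het value lay only just above the highest WT value, and Het 2 and Het 3, the libraries with the high Dbp levels, were the highest. The 15 chaperone genes all had a log2 fold change above 0, with a median of 0.52. Of these, 12 (80%) had an unadjusted p under 0.05 by edgeR, against 7.15% of all genes. The edgeR adjusted threshold was passed by 0, and that of DESeq2 by 7, against 0.511% of all genes. Whether the members and these lists differ in their response was not tested.

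**Figure D4:**
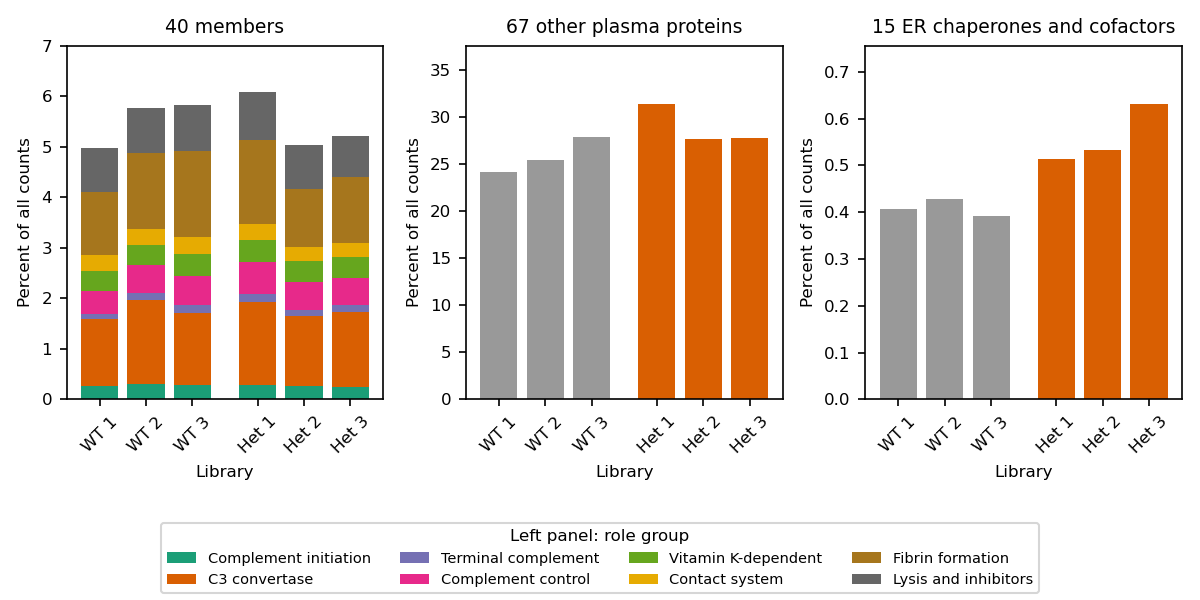
Percent of all counts in each library for the members, the other plasma proteins and the endoplasmic reticulum chaperone genes, with a bar per library starting at 0 and the members' bars divided by role group. Members overlap between genotypes, at 5.52% in WT and 5.44% in Het, while chaperone genes lie between 0.393% and 0.429% in WT and between 0.515% and 0.630% in Het.

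The other genes of these pathways were receptors, regulators, locally made components and the enzymes that modify clotting factors, a list of 62 of which 53 were tested. Their median log2 fold change was -0.06, with 20 above 0 and 33 below. By edgeR 0 passed the adjusted threshold, and DESeq2 called 0. At an unadjusted p under 0.05 by edgeR 1 was higher and 1, Tfpi2, lower, or 3.77%, against 7.15% of all genes. Genotypes did not overlap for 1 that was higher and 8 that were lower in Het, against 7.15% higher and 6.72% lower of all genes.

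Tfpi2, an inhibitor of plasmin and of the tissue factor complex, was at 53.3, 66.7 and 53.8 CPM in WT against 40.2, 42.8 and 38.2 CPM in Het. The genotypes did not overlap, and the log2 fold change was -0.52 (SE 0.12), 1.44-fold lower in Het, with an edgeR adjusted p of 0.577 and a DESeq2 adjusted p of 0.0585. Thbd, encoding the endothelial thrombin receptor that starts protein C activation, was at 3.73, 3.91 and 3.91 CPM in WT against 2.94, 3.28 and 3.18 CPM in Het. Anxa2, a surface receptor for plasminogen, was at 16.95, 15.24 and 15.61 CPM in WT against 14.0, 13.3 and 14.3 CPM in Het. Both were lower in every Het library, with log2 fold changes of -0.30 and -0.20 and unadjusted p-values of 0.0837 and 0.0834.

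Genes that carry or modify the factors on their way out of the cell gave 5 of 10 log2 fold changes above 0, with a median of 0.02. Vkorc1, which recycles vitamin K for the carboxylation of clotting factors, was at 34.7, 39.1 and 46.3 CPM in WT against 56.4, 44.1 and 47.7 CPM in Het. WT 3 and Het 2 overlapped, and the log2 fold change was 0.30 with an unadjusted p of 0.0604. Ggcx, the carboxylase itself, was at 64.6, 74.4 and 66.2 CPM in WT against 64.4, 76.4 and 63.2 CPM in Het. Lman1 and Mcfd2, the receptor pair that carries factors V and VIII out of the endoplasmic reticulum, had log2 fold changes of 0.06 (SE 0.13) and -0.06 (SE 0.11). Clu, encoding the plasma chaperone clusterin, which also blocks the terminal complement pore, was at 929, 1106 and 1138 CPM in WT against 1464, 1113 and 1189 CPM in Het, with a log2 fold change of 0.25 and an unadjusted p of 0.128.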

How the data were processed

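Poly(A) RNA from 6 mouse liver samples was sequenced from strand-specific libraries, per the labels' protocols. The submitters' processing notes name STAR 2.5.3a, HTSeq 0.6.1p1, cutadapt 1.10, bcl2fastq 2.17.1.14 and DESeq2 1.16.1, with build mm10. The sources used here do not give the annotation release, whether counting used strand or how multiply mapped reads were treated. The authors deposited raw counts per gene, whole numbers per the file headers, and these were the only values used. The normalized columns and the authors' table of differential expression were not used.

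Genes were filtered with edgeR's filterByExpr, scaled with TMM factors and compared, Het against WT, with the quasi-likelihood test of edgeR 4.0.16 (R 4.3.3, two-sided, genotype as the only term, 3 libraries each) at a Benjamini-Hochberg adjusted p of 0.05 over all 14606 tested genes. limma-voom (limma 3.58.1), DESeq2 1.42.0, other scalings and filters, a replicate block and leaving out libraries were alternatives. The scripts were tested on simulated data. Standard errors come from the quasi-likelihood F statistic. CPM divides counts by the effective library size, and CPM per kb divides by the GENCODE M21 (GRCm38) principal transcript length. Shares are sums of raw counts over the total. Counts of 37924266 or more per library make counting error small for members, so the spread between libraries sets the precision. Counts of every library pair differed beyond sampling noise.

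Members and lists were chosen with earlier results of these data known. The rule for values in every library took members past a threshold in edgeR or DESeq2, members whose genotypes did not overlap, and in each of the 8 role groups the member with the smallest p and that with the most counts. Of the other pathway genes it took the 3 with the smallest p in each direction, of which 1 is not reported here, and of genes outside the lists the 3 whose log2 CPM correlated best with the members' share. Other genes shown (C2, C8b, Fgb, Fgg, F5, Proc, C9, Ggcx, Lman1, Mcfd2, Dbp, Arntl, Ttr, Igfals, Orm1) were chosen after their values were seen.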

Additional observations from a re-analysis of the deposited data

How the results depend on the processing

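In all, 0 genes and 0 members passed the adjusted threshold in edgeR, against 66 genes and 1 member, Cfb, with DESeq2 and 73 genes without the low-count filter. Leaving out single libraries gave between 0 and 1 genes (1 without Het 2). Ptprd did not pass in the main edgeR fit (adjusted p 0.298). It passed with DESeq2 (log2 fold change -0.98, adjusted p 2.01e-06) and without the filter (-0.98, adjusted p 0.000588), and lay between -1.13 and -0.87 with single libraries left out. The median log2 fold change of members was 0.26 without Het 2 and Het 3 and between -0.05 and 0.09 with single libraries left out. The difference in member share was 0.563 percentage points without Het 2 and Het 3, between -0.393 and 0.132 with single libraries left out, 0.106 over the effective library size and -0.176 per transcript length, an alternative chosen after seeing the data. Without Het 2 and Het 3 the sign turned for 8 members: C4b (0.20), Kng1 (0.047), Fga (0.30), Masp2 (0.13), C2 (0.25), Fgb (0.31), Fgg (0.27) and Serpinc1 (0.09). It turned for 17 without Het 1, 16 of them to below 0. With single libraries left out Fga ranged from -0.341 to 0.062, C3 from -0.031 to 0.148 and Plg from -0.026 to 0.155, and the cause was not tested. Counts of members at an unadjusted p under 0.05 ranged from 1 (2.5%, without WT 1 or WT 2, against 4.97% and 4.62% of all genes) to 5 (12.5%, without Het 1, against 6.28%). The spread between 3 libraries set the limit: the 95% interval of C8a ran from -0.19 to 1.37 on the log2 scale.

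With the replicate number as a block, 0 genes passed, the median of members was 0.02 and Cfb was 0.72 (adjusted p 0.552). No pairing of the libraries by number was seen. Correlations of same-numbered deviations were -0.07, 0.12 and 0.15, and 2 of 6 libraries were closest to their own number. With 3 libraries per genotype a pairing could be missed.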

Other observations

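Among 67 other plasma proteins, 49 had a log2 fold change above 0 (73.1%, against 49.2% of all genes), with a median of 0.14. Genotypes did not overlap for 10 that were higher and 2 that were lower in Het, or 17.9%, against 13.9% of all genes. By edgeR 0 passed the adjusted threshold, and 9 had an unadjusted p under 0.05, or 13.4%, against 7.15% of all genes. Ttr, the thyroxine and retinol carrier transthyretin, was at 5186, 4889 and 5934 CPM in WT against 6636, 6520 and 7059 CPM in Het. Igfals, which stabilises circulating insulin-like growth factors, was at 153, 171 and 196 CPM in WT against 260, 206 and 210 CPM in Het. Orm1, an acute-phase glycoprotein, was at 639, 642 and 670 CPM in WT against 598, 385 and 451 CPM in Het, and is a member of a family of close copies. Every Het library of Ttr and Igfals lay above, and every Het library of Orm1 below, the WT libraries.

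Outside the members, the 3 genes whose log2 CPM followed the members' share of counts most closely over the 6 libraries were Nectin4 (Pearson r 0.99), Gm42418 (r 0.99) and Cd4 (r 0.98), of 14566 genes compared. Nectin4, between 0.195 and 0.631 CPM, and Cd4, between 0.575 and 1.45 CPM, were low in all libraries. These values share their libraries with the members and carry no test.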
